A study of Homo sapiens with 8 samples.

Results

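The effect of losing both transcriptional repressors on the transcriptome of PNT2 (human prostate epithelium made to grow without limit in culture) was examined by comparing the 2 *ERF* KD + *CIC* KO libraries, labelled CIC-ERF codeletion, with the 2 libraries of WT cells. These 4 libraries of the 8 in the series were assigned to their groups by their labels. Per the study's methods, *ERF* was silenced with a short hairpin RNA selected with puromycin, *CIC* was disrupted with guide RNA selected with blasticidin, and both double lines carried the same hairpin with 1 of 2 guides. Neither the labels nor the methods state which hairpin or guide a replicate letter (A or B) stands for, or whether the WT cells carried a control vector. The other 4 libraries, labelled *ERF* KD and labelled *CIC* KO, entered the fit to estimate the spread. *ERF* mRNA went against these single-loss labels, at 81.2 and 77.8 CPM in the libraries labelled *ERF* KD and 18.8 and 11.7 CPM in those labelled *CIC* KO, but the comparison described here does not depend on which of them is which. Library totals ran from 19477473 to 25813157 estimated counts, so that 3 counts, taken as the floor of detection, were between 0.116 and 0.154 CPM (estimated counts scaled to a common library total).

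CIC is an HMG-box repressor that binds octamers in the regulatory regions of its target genes and is released from them when the RAS-MAPK pathway is active. ERF is an ETS-domain protein that occupies the GGAA core of ETS sites and represses genes that activating ETS factors would switch on. The PEA3 subfamily of ETS activators (*ETV1*, *ETV4* and *ETV5*) is the best-known group of CIC-repressed genes, and DUSP, SPRY and SPRED proteins, which dampen MAPK signalling, are known to be induced by the same pathway. Loss of both repressors was therefore read first on the targeted genes themselves and on these families, and then on gene lists that cover junctions, matrix, signalling, cell cycle and metabolism.

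*ERF* fell in the double line. It measured 55.8 and 55.9 CPM in WT and 11.6 and 10.4 CPM in *ERF* KD + *CIC* KO (log2 fold change -2.35 ± 0.18, adjusted p = 0.00841; the error is the SE here and below). *CIC* also fell, at 128 and 129 CPM in WT and 90.9 and 66.4 CPM in *ERF* KD + *CIC* KO (log2 fold change -0.72 ± 0.14, adjusted p = 0.0399). Guide RNA and Cas9 change the coding sequence and need not lower the mRNA, so the *CIC* level is a description of the transcript and not of the protein. The libraries of each gene did not overlap between the groups, as was so for 49.5% of all genes tested. Both genes lie side by side on chromosome 19 (GRCh38: *ERF* at chr19:42247572-42255157, minus strand; *CIC* at chr19:42268537-42295797, plus strand). Exons of *ERF* overlap those of *AC006486.1* on the same strand, so that reads shared by them were divided by the estimation.

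The labelled cell type was checked against its markers. Of 10 markers of prostate epithelium 7 were tested and 0 were called. The luminal keratin gene *KRT8* ran from 1320 to 1841 CPM over the 4 libraries, *KRT18* from 976 to 1365 CPM and the epithelial adhesion gene *EPCAM* from 278 to 381 CPM. *KLK3* was at 0 CPM in each of the 4 libraries, and *TP63* stayed under 1 CPM, so that these markers of secretory and basal prostate cells were at or near 0 in both groups. Of 11 fibroblast markers, 5 were under 1 CPM in all 4 libraries, and the summed level was 70.0 and 53.2 CPM in WT and 74.6 and 53.6 CPM in the double line. Among them the surface protease gene *FAP* fell from 17.7 and 20.3 CPM to 8.13 and 9.19 CPM (log2 fold change -1.13 ± 0.20, adjusted p = 0.0326). Of 10 leukocyte markers, 7 were under 1 CPM, with sums of 20.7 and 47.6 CPM in WT and 16.6 and 25.5 CPM in the double line, and *CD68*, a lysosomal protein that made up most of the sum in WT, measured 14 and 42.7 CPM in WT and 5.54 and 21.8 CPM in *ERF* KD + *CIC* KO (log2 fold change -1.12 ± 0.19, adjusted p = 0.0276), with overlapping groups. In bulk RNA, fewer cells of a type cannot be told apart from less RNA per cell. Because nothing states that replicates came from separate cultures, p-values measure the spread between these libraries, which may be technical.

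Across 14653 genes tested, 365 (2.49%) passed an adjusted p of 0.05, of which 142 (0.969%) were higher and 223 (1.52%) were lower in *ERF* KD + *CIC* KO. The 2 directions differed in size and level. Genes called higher moved less, with a median absolute log2 fold change of 0.74 at a median level of 63.6 CPM, and 35 of them changed by at least 1 on the log2 scale. Genes called lower moved by a median of 1.20 from a median level of 17.9 CPM, not corrected for length, and 143 changed by at least 1. The median over all genes tested was 0.00, and 50.1% of them were higher. All 365 called genes moved in one direction in both replicate letters, against 69.4% of all genes tested, and 352 had groups that did not overlap, as did 7249 (49.5%) of all genes tested. The number of calls rests on the replicate letter, which was fitted as a block: without it 10 genes were called (*VCAN*, *ERF*, *HTRA1*, *SLPI*, *OSBP2*, *CADM1*, *EEF1A2*, *DSG3*, *LPL* and *PRXL2A*), 1950 genes being at an unadjusted p under 0.05. It also fell to 37 without WT A, 48 without WT B, 87 and 67 without labelled *CIC* KO A and B and 22 without *ERF* KD + *CIC* KO A. Of the 46 lists described below 36 held a called gene, against 5 without the block (through *DSG3*, *VCAN*, *CADM1*, *LPL* and *EEF1A2*) and 7 without *ERF* KD + *CIC* KO A. *CADM1* and *EEF1A2* passed under each of the 15 other settings run.

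**Figure D1:**
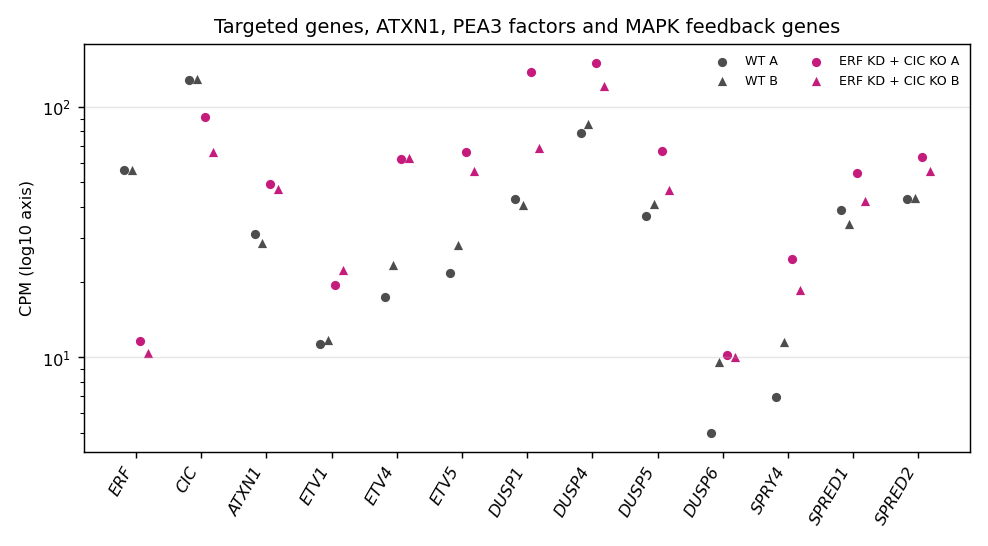
Level of the targeted genes, of *ATXN1*, of the PEA3 factors and of the MAPK feedback genes in the 4 libraries, as CPM on a log10 axis, with circles for replicate A and triangles for replicate B. *ERF* dropped from 55.8 and 55.9 to 11.6 and 10.4 CPM, whereas *ETV4* and *ETV5* lay above both WT libraries in both double libraries.

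The PEA3 factors lay higher in the double line. *ETV4* rose from 17.4 and 23.5 CPM in WT to 61.8 and 62.8 CPM in *ERF* KD + *CIC* KO (log2 fold change 1.62 ± 0.20, adjusted p = 0.0139). *ETV5* rose from 21.8 and 28.1 CPM to 66.5 and 55.4 CPM (log2 fold change 1.29 ± 0.19, adjusted p = 0.0204). *ETV1* measured 11.4 and 11.7 CPM in WT and 19.5 and 22.4 CPM in *ERF* KD + *CIC* KO and did not pass the threshold (log2 fold change 0.86 ± 0.19, adjusted p = 0.0551). All 3 genes had groups that did not overlap, as did 49.5% of all genes tested. The median of the list was 1.29, against 0.00 over all genes. Exons of *ETV5* overlap *DGKG* on the same strand and those of *ETV4* overlap *DHX8* on the other, and the strandedness of the libraries is not given in the sources used here.

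Of 13 MAPK feedback inhibitors tested, 1 rose (7.69%, against 0.969% of all genes tested) and 10 had a positive log2 fold change (median 0.45). *DUSP1*, a phosphatase that inactivates MAP kinases, rose from 42.9 and 40.5 CPM to 138 and 68.6 CPM (log2 fold change 1.26 ± 0.24, adjusted p = 0.0395). *SPRY4*, an inhibitor of RAS-MAPK signalling, measured 6.98 and 11.6 CPM in WT and 24.8 and 18.6 CPM in *ERF* KD + *CIC* KO (log2 fold change 1.29 ± 0.27, adjusted p = 0.051). Both *DUSP1* and *SPRY4* lie in the stretch of chromosome 5 described below, where 9.34% of the genes tested were called higher. *DUSP4* measured 78.6 and 85.3 CPM in WT and 151 and 121 CPM in *ERF* KD + *CIC* KO (adjusted p = 0.081), while *DUSP6* had 4.99 and 9.58 CPM in WT and 10.2 and 10 CPM in *ERF* KD + *CIC* KO (adjusted p = 0.313). *DUSP10*, a phosphatase of the JNK and p38 kinases that was not on the list and is named because it was called, rose from 42.9 and 61.4 CPM to 123 and 102 CPM (log2 fold change 1.13, adjusted p = 0.0242).

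Over all genes tested 2.49% passed, the share to set beside each list count in this paragraph. Among the partners of CIC and the Groucho corepressors, 1 of 10 passed. This was *ATXN1*, whose protein binds and stabilizes CIC, which rose from 31.2 and 28.6 CPM to 49.1 and 47 CPM (log2 fold change 0.69 ± 0.12, adjusted p = 0.0276). Of 22 AP-1 and immediate early genes, 1 rose, the small MAF factor *MAFF* (17 and 25.7 CPM in WT and 45.5 and 38 CPM in the double line, log2 fold change 0.99 ± 0.20, adjusted p = 0.0451), with a list median of 0.44. Among the 17 ETS factors outside PEA3 1 fell: *EHF*, an epithelial ETS factor, went from 5.03 and 9.64 CPM to 0.677 and 2.14 CPM (log2 fold change -2.43 ± 0.44, adjusted p = 0.0326). The WT libraries of *EHF* differed among themselves, but both lay above both double libraries.

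Promoter windows of RefSeq (GRCh38.p14, 250 bases before to 50 after each transcript start) were matched by symbol for 10865 of the genes tested and searched on both strands for a CIC octamer (TGAATGAA, TGAATGGA, TCAATGAA or TCAATGGA) and for the ETS core CCGGAA. An octamer was present in 427 of 15913 windows (2.68%), in 9 of 174 windows of genes called higher (5.17%) and in 12 of 272 windows of genes called lower (4.41%). The ETS core was present in 25.5% of all windows, 20.7% of those of genes called higher and 16.2% of those of genes called lower. No window of *ETV4* or *ETV5* was matched. Sequences around the octamer are shown for *ETV1*, *DUSP6* and 7 called genes, picked after their values were known to cover both directions, because there the letters known to be read by CIC lie upstream of a start of a gene whose level was measured here. Each is read 5′ to 3′ on the strand of the gene, and capitals mark the octamer or its reverse complement.
*ETV1* (chr7:13991528-13991565, minus strand, 125 bases before a start): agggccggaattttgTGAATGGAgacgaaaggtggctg
*DUSP6* (chr12:89352503-89352540, minus strand, 24 bases before the start): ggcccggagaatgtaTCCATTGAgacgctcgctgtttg
*MAFF* (chr22:38201952-38201989, plus strand, 27 bases before a start): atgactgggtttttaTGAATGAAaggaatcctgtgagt
*ATXN1* (chr6:16760262-16760299, minus strand, 100 bases before a start): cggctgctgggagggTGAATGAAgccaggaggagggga
*USP47* (chr11:11841922-11841959, plus strand, 35 bases before the start): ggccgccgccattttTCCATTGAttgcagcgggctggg
*GSTM3* (chr1:109741216-109741253, minus strand, 200 bases before the start): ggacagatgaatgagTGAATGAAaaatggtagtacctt
*VCAN* (chr5:83471631-83471668, plus strand, 98 bases before the start): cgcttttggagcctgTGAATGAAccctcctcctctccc
*ITGA6* (chr2:172427197-172427234, plus strand, 124 bases before a start): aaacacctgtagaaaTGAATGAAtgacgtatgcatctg
*SEMA3C* (chr7:80919036-80919073, minus strand, 7 bases before a start): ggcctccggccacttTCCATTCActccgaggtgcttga
Of the called genes shown, *MAFF*, *ATXN1*, *USP47* and *GSTM3* were higher and *VCAN*, *ITGA6* and *SEMA3C* were lower. Other called genes with an octamer in a window, among them *CIC* itself and *FAS* (lower) and *DUSP10* and *ABCG2* (higher), are not printed. A match describes the letters of the window and is not a measurement of binding.

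The largest increases were spread over signalling, development and ion transport. *NFATC1*, a calcium-regulated transcription factor, rose from 1.47 and 1.63 CPM to 12.8 and 7.84 CPM (log2 fold change 2.69 ± 0.42, adjusted p = 0.0246). *ANO2*, a calcium-activated chloride channel, rose from 2.66 and 1.89 CPM to 18.2 and 8.97 CPM (log2 fold change 2.52 ± 0.27, adjusted p = 0.0135). In both genes the WT libraries were close together, and the lower of the double libraries was still several times above them. The pacemaker channel gene *HCN2* rose (1.49 on the log2 scale), as did the cyclic GMP phosphodiesterase *PDE9A* (1.51), the orphan receptor *GPRC5C* (1.86), the LDL-receptor relative *LRP4* (1.46) the neuronal kinase *BRSK2* (1.59) and *C1QL4*, a secreted protein of the C1q family (1.61).

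Of 48 developmental transcription factors tested, 3 rose (6.25%, against 0.969% of all genes tested) and 0 fell. *TBX3*, a T-box repressor, went from 4.89 and 6.98 CPM to 25.2 and 20.2 CPM (log2 fold change 1.98 ± 0.31, adjusted p = 0.0246). *ISL1*, a LIM-homeodomain factor, went from 2.94 and 1.89 CPM to 6.52 and 6.15 CPM, and *TFAP2C*, an AP-2 factor of epithelial progenitors, from 70 and 56 CPM to 118 and 79.8 CPM (log2 fold changes 1.40 and 0.63). The median of the list was 0.09. Of the 24 *HOX* genes tested 0 passed, and their median was 0.00.

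*USP47*, a deubiquitinase, rose with close replicates, at 31.4 and 24.3 CPM in WT and 83.9 and 84.6 CPM in *ERF* KD + *CIC* KO (log2 fold change 1.62 ± 0.19, adjusted p = 0.0139); it passed in 12 of the 15 other settings. *EEF1A2*, an isoform of the elongation factor that brings aminoacyl-tRNA to the ribosome, rose from 249 and 251 CPM to 586 and 524 CPM (log2 fold change 1.15 ± 0.11, adjusted p = 0.00841). Of 14 elongation factors tested it alone was called (7.14%, against 2.49% of all genes tested). Any reads that fit both *EEF1A2* and the related gene *EEF1A1* were divided between them by the estimation. *CDH5*, the endothelial cadherin, rose from 10.3 and 5.15 CPM to 65.4 and 15 CPM (log2 fold change 2.13 ± 0.30, adjusted p = 0.0184), and the double libraries differed several-fold. No other endothelial marker passed: *PECAM1*, *VWF*, *KDR* and *TEK* were at or under 2.45 CPM in each of the 4 libraries, and the sum over the 8 listed endothelial markers was 15.5 and 12.2 CPM in WT and 69.8 and 18.5 CPM in the double line.

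Of the genes called higher 52.8% lay on 2 chromosomes. Chromosome 5 carried 43 of them and chromosome 22 carried 32, that is 75 of 142, while these chromosomes held 660 and 355 of the genes tested. This share depended on the libraries and on the test: it was 32.8% of 241 genes called higher without *ERF* KD + *CIC* KO B, 13.3% of 15 without WT B, 33.3% of 3 without WT A and 0% of 3 without *ERF* KD + *CIC* KO A. It was 35.7% of 423 with DESeq2, and the 1 gene called higher without the block lay elsewhere. When the genes tested were ordered along each chromosome and cut into 584 blocks of 25, the block medians had a 5th percentile of -0.26 and a 95th percentile of 0.23. Of the 20 blocks with the highest medians 14 lay on chromosome 5 and 3 on chromosome 22. The positions were examined after the calls had been seen, and no test was made on them.

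**Figure D2:**
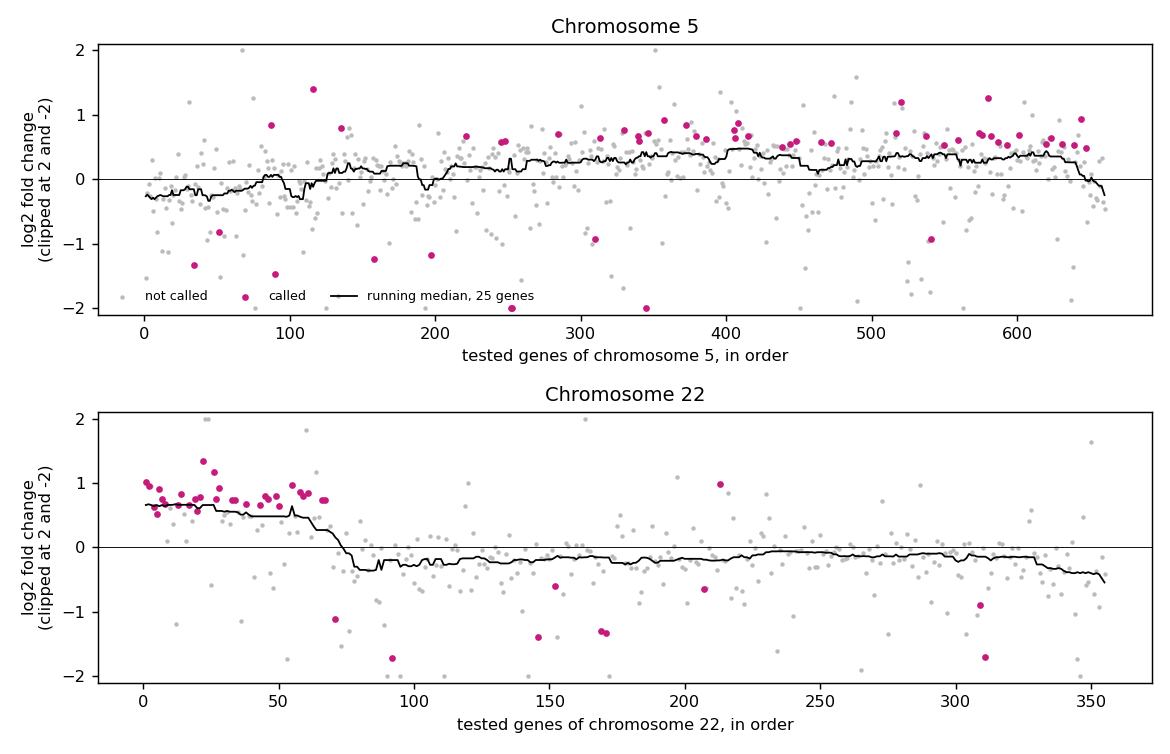
Log2 fold change of *ERF* KD + *CIC* KO over WT for the genes tested on chromosomes 5 and 22, in their order along the chromosome, with called genes in colour and the running median of 25 genes as a line. On chromosome 22 the line stays near 0.62 over the first 67 genes and then drops below 0, while on chromosome 5 it stays above 0 over most of the long arm.

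On chromosome 22 the shift covered one stretch. From *IL17RA* to *TOP3B* (GRCh38 chr22:17084954-21982816), 59 of 67 genes tested had a positive log2 fold change, 31 were called higher and 0 lower, and the median was 0.62, a 1.54-fold difference. The median was 0.65 between the replicates A and 0.58 between the replicates B. Beyond *TOP3B* the chromosome held 1 gene called higher and 9 lower of 288, with a median of -0.17. *BID*, a BH3-only apoptosis protein, rose from 51.4 and 60.3 CPM to 99.1 and 111 CPM (0.91 on the log2 scale). The ubiquitin-conjugating enzyme *UBE2L3* rose from 137 and 147 CPM to 250.1 and 268 CPM (0.87), and the adaptor *CRKL* from 147 and 154 CPM to 276 and 230.1 CPM (0.75). *LZTR1*, which takes part in the degradation of RAS proteins, rose from 95.6 and 101 CPM to 176 and 165 CPM (0.79). *RAB36*, just beyond the stretch, fell (-1.11). Against the same 2 WT libraries the median of the 67 genes was 0.76 in the libraries labelled *ERF* KD and 0.35 in those labelled *CIC* KO.

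On chromosome 5 the shift was smaller and longer. From *ARRDC3* to *TRIM52* (chr5:91368724-181272167), 303 of 396 genes had a positive log2 fold change, 37 were called higher and 3 lower, and the median was 0.31 (1.24-fold), with 0.31 in replicates A and 0.28 in replicates B. Before *ARRDC3* the median was -0.01 over 264 genes. Against the same WT libraries the medians of the 396 genes were 0.12 in the libraries labelled *ERF* KD and 0.07 in those labelled *CIC* KO. The stretch includes *NPM1*, a nucleolar histone chaperone (1087 and 1357 CPM in WT and 1848 and 2141 CPM in the double line, 0.71 on the log2 scale), the autophagy receptor *SQSTM1* (0.93), the phosphatase subunit *PPP2CA* (0.67), the catenin *CTNNA1* (0.68) and *DUSP1*. Outside both stretches 74 genes were called higher (0.523% of 14159), with a median log2 fold change of 0.94 against 0.70 for the 68 within them. The DNA copy number of these cells was not measured in the files used here, and its part in these shifts was not tested.

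Matrix and adhesion lists held many of the genes called lower. Over all genes tested 1.52% were called lower, the share to set beside the counts in this and the next paragraphs. Of 23 collagens tested 5 fell and 0 rose (median -0.45). *COL5A1*, a fibrillar collagen, went from 548 and 454 CPM to 284 and 253 CPM (log2 fold change -0.89 ± 0.13, adjusted p = 0.0188), and *COL6A1*, a chain of beaded-filament collagen, from 63.8 and 97.2 CPM to 35.7 and 36.6 CPM (log2 fold change -1.13 ± 0.15, adjusted p = 0.0162). The basement membrane chains *COL4A5* and *COL4A6*, which lie next to each other on chromosome X, fell from 83.9 and 60.5 CPM to 34 and 38.5 CPM and from 29.8 and 34.3 CPM to 9.23 and 18.8 CPM. *COL11A1* had 27 and 14 counts in WT and 1 and 1 in the double line, a ratio of 20.8 with a 95% counting interval of 5.41 to 178. *COL1A1* measured 37.3 and 25.8 CPM in WT and 48.9 and 35.3 CPM in *ERF* KD + *CIC* KO and was not called (adjusted p = 0.236).

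Of 36 proteoglycans and matrix glycoproteins 7 fell and 0 rose (median -0.22). *VCAN*, the large matrix proteoglycan versican, went from 5.94 and 5.91 CPM to 0.212 and 0.226 CPM (log2 fold change -4.73 ± 0.47, adjusted p = 0.00961). Both pairs of libraries were close together, the double libraries lay near the floor, and *VCAN* was called in 14 of the 15 other settings. *LTBP1*, which holds latent TGF-beta in the matrix, fell from 22.7 and 18.6 CPM to 7.58 and 9.19 CPM (log2 fold change -1.30 ± 0.18, adjusted p = 0.0187). *FBLN1* fell from 191 and 124 CPM to 101 and 68.8 CPM, and *FN1*, the fibronectin gene, from 3038 and 3948 CPM to 2053 and 2831 CPM (log2 fold change -0.52 ± 0.11, adjusted p = 0.0468). *EDIL3*, a ligand of integrins, had 28 and 29 counts in WT and 0 and 1 in the double line, a ratio of 58.0 with a 95% counting interval of 9.99 to 2329. These intervals cover counting error only.

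Of 26 matrix proteases and inhibitors 4 fell and 0 rose (median -0.54). They were *MMP16*, a membrane-anchored metalloproteinase (8.64 and 9.58 CPM in WT and 1.65 and 3.16 CPM in the double line, log2 fold change -2.01 ± 0.30, adjusted p = 0.022), *ADAMTS6* (-1.24 on the log2 scale), *ADAM19* (-0.92) and the inhibitor *TIMP2* (-0.53). *ADAM19* measured 128 and 320.3 CPM in WT and 63.9 and 179 CPM in *ERF* KD + *CIC* KO, so that the groups overlapped although each letter moved down. *TLL1*, a protease that processes procollagens and was not on the list, fell from 6.98 and 6.73 CPM to 0.0423 and 0.62 CPM (log2 fold change -4.65 ± 0.86, adjusted p = 0.036). Its level in *ERF* KD + *CIC* KO A was under the floor, so the size of the fall is uncertain.

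Of 17 integrins tested 4 fell, 0 rose and 3 had a positive log2 fold change (median -0.46). The shared beta chain *ITGB1* fell from 1268 and 1525 CPM to 739 and 1098 CPM (log2 fold change -0.62 ± 0.11, adjusted p = 0.0344), the fibronectin receptor chain *ITGA5* from 77.4 and 130.4 CPM to 55.9 and 66.4 CPM (log2 fold change -0.73 ± 0.15, adjusted p = 0.0433), and *ITGB3* from 3.56 and 4.79 CPM to 0.889 and 0.789 CPM (log2 fold change -2.31 ± 0.35, adjusted p = 0.022). *ITGA6* measured 198 and 277 CPM in WT and 124 and 209.5 CPM in *ERF* KD + *CIC* KO, with overlapping groups (log2 fold change -0.54 ± 0.11, adjusted p = 0.0461).

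**Figure D3:**
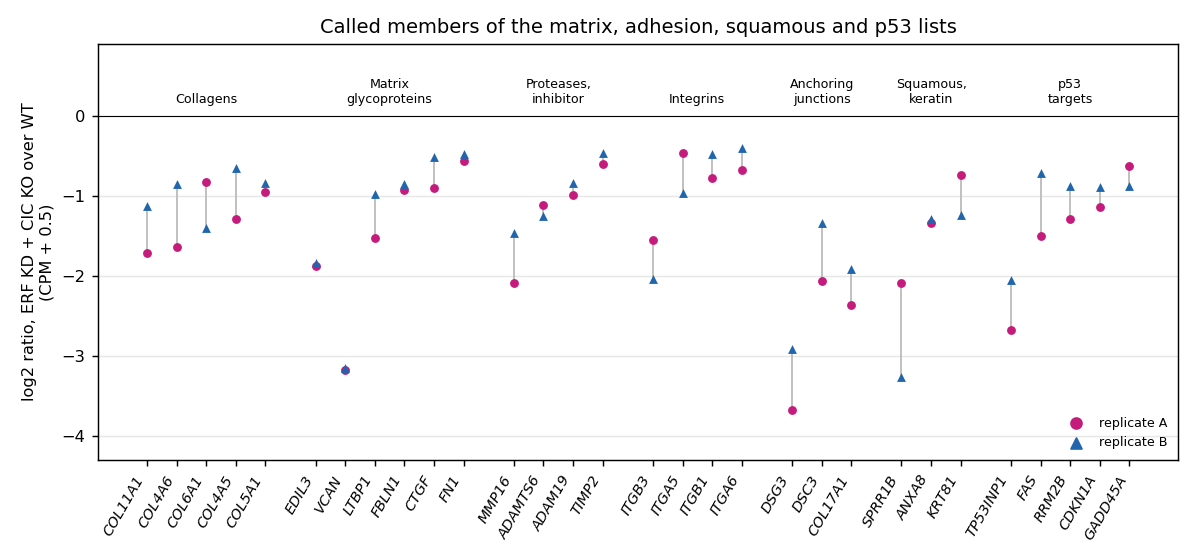
Log2 ratio of *ERF* KD + *CIC* KO over WT within replicate A (circles) and within replicate B (triangles) for named called members of the matrix, integrin, junction, squamous, keratin and p53 lists, computed from CPM plus 0.5. Each of the points lies below 0, and *VCAN*, *DSG3* and *SPRR1B* lie lowest in at least 1 letter.

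The anchoring junctions of stratified epithelium fell in part. Of 11 desmosome genes 2 fell (median -0.27): the desmosomal cadherins *DSG3* (9.69 and 8.77 CPM in WT and 0.296 and 0.733 CPM in *ERF* KD + *CIC* KO, log2 fold change -4.20 ± 0.46, adjusted p = 0.0135) and *DSC3* (9.55 and 10.5 CPM in WT and 1.9 and 3.83 CPM in *ERF* KD + *CIC* KO, log2 fold change -1.84 ± 0.31, adjusted p = 0.0286), which both lie in the desmosomal cadherin cluster of chromosome 18. *DSC2*, which lies between them there, measured 42.3 and 46.9 CPM in WT and 43.5 and 43.6 CPM in *ERF* KD + *CIC* KO and was not called (adjusted p = 0.914). Of 10 hemidesmosome genes 3 fell (median -0.32), and *ITGA6* was one of them. *COL17A1*, the transmembrane collagen of the hemidesmosome, went from 74.3 and 151 CPM to 14 and 40 CPM (log2 fold change -2.14 ± 0.24, adjusted p = 0.0139). In both groups the B library was about 2 to 3 times the A library. The groups did not overlap, but the gene did not pass without the replicate block (adjusted p = 0.214).

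Of 13 squamous differentiation genes 2 fell and 0 rose, with a median of -0.51. *SPRR1B*, a cornified envelope protein, had 1.8 and 14 CPM in WT and 0.0423 and 1.01 CPM in *ERF* KD + *CIC* KO (log2 fold change -4.02 ± 0.48, adjusted p = 0.0139), again with the B libraries above the A libraries, and did not pass without the block (adjusted p = 0.318). The level of *SPRR1B* in *ERF* KD + *CIC* KO A was under the floor. *ANXA8* fell from 21.4 and 26.8 CPM to 8.17 and 10.7 CPM (log2 fold change -1.36 ± 0.19, adjusted p = 0.0181). *FLG*, the filaggrin gene, was not among the members counted and fell from 1.76 and 1.78 CPM to 0.127 and 0.395 CPM, near the floor in *ERF* KD + *CIC* KO A (log2 fold change -2.86 ± 0.56, adjusted p = 0.0415). Of 14 keratins 1 was called, the hair keratin *KRT81* (34.3 and 46.7 CPM in WT and 20.4 and 19.6 CPM in *ERF* KD + *CIC* KO, log2 fold change -1.005 ± 0.17, adjusted p = 0.0276).

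None of the 17 tight junction genes passed, at log2 fold changes from -0.14 to 0.39, and 16 of them were positive (median 0.14). Of 20 adherens and epithelial identity genes 1 passed, *CTNNA1* on chromosome 5, and *CDH1* measured 362 and 385 CPM in WT and 258 and 273 CPM in *ERF* KD + *CIC* KO (adjusted p = 0.063). Of 16 mesenchymal genes 3 fell and 0 rose: *ZEB1*, a repressor of epithelial genes (6.08 and 7.04 CPM in WT and 2.5 and 2.93 CPM in *ERF* KD + *CIC* KO, log2 fold change -1.27 ± 0.17, adjusted p = 0.0171), *ITGA5* and *FN1*. *VIM* measured 105 and 211 CPM in WT and 32.4 and 109 CPM in *ERF* KD + *CIC* KO (adjusted p = 0.0513).

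Several adhesion genes fell to near the floor. *CADM1*, an immunoglobulin-like cell adhesion molecule, fell from 6.98 and 8.11 CPM to 0.677 and 0.338 CPM (log2 fold change -3.85 ± 0.35, adjusted p = 0.00841). *CNTN1*, a contactin of the same superfamily, had 79 and 165 counts in WT and 0 and 2 in the double line, a ratio of 124 with a 95% counting interval of 34.0 to 1030.2. *NRCAM* fell as well (-2.35 on the log2 scale), so that 3 of 26 adhesion molecules fell and 0 rose. *TENM3*, a teneurin outside the list, went from 18.3 and 14.5 CPM to 0.127 and 1.13 CPM (log2 fold change -4.75 ± 0.85, adjusted p = 0.033).

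Among 45 axon guidance genes 3 fell and 1 rose (8.89%, against 2.49% of all genes tested), with a median of -0.17. The secreted ligand *SLIT2* rose from 7.22 and 4.64 CPM to 32.3 and 19.2 CPM (log2 fold change 2.11 ± 0.42, adjusted p = 0.0429). The semaphorin and VEGF co-receptor *NRP2* fell from 11.4 and 7.95 CPM to 1.74 and 0.677 CPM (log2 fold change -2.99 ± 0.39, adjusted p = 0.0154), *SEMA5A* from 81 and 65.1 CPM to 26.5 and 30.8 CPM and *SEMA3C* from 62.5 and 74.1 CPM to 28.6 and 39.8 CPM. *ROBO1*, a receptor of SLIT2, measured 41.2 and 42.6 CPM in WT and 25.4 and 24.4 CPM in *ERF* KD + *CIC* KO (adjusted p = 0.0539).

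Growth factor ligands and their binding proteins were lower in part. The shares over all genes tested, to set beside the counts here, were 1.52% lower and 0.969% higher. Of 32 growth factor ligands 4 fell and 0 rose (median -0.35): *PDGFA* (-1.20 on the log2 scale), *PDGFC* (-0.72) and the insulin-like growth factor binding proteins *IGFBP5* (-1.50) and *IGFBP7* (-1.90). *WNT7B* fell from 31.5 and 29.1 CPM to 10.9 and 7.72 CPM (log2 fold change -1.70 ± 0.20, adjusted p = 0.0139) and its relative in the pathway, the receptor *FZD10*, from 2.28 and 3.98 CPM to 0.466 and 0.789 CPM; these were the 2 called of 40 WNT genes. The TGF-beta and BMP list split, with 2 higher and 1 lower of 39. *INHBB*, an activin subunit, rose from 19.8 and 21.1 CPM to 93.3 and 36.6 CPM (log2 fold change 1.56 ± 0.29, adjusted p = 0.0378), *TGFB2* had 162 and 111 CPM in WT and 312 and 154 CPM in *ERF* KD + *CIC* KO with overlapping groups (log2 fold change 0.72 ± 0.15, adjusted p = 0.0453), and *BMP6* fell from 2.04 and 5.86 CPM to 0.296 and 0.902 CPM (log2 fold change -2.73 ± 0.45, adjusted p = 0.0276). Of 30 cytokines and chemokines *IL32* (-1.54) alone was called, 3.33% against 2.49% of all genes tested.

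Of 23 p53 targets 5 fell (21.7%, against 1.52% of all genes tested), 0 rose and 2 had a positive log2 fold change (median -0.42). *TP53INP1*, a stress-induced regulator of autophagy and apoptosis, fell from 18.4 and 20.4 CPM to 2.46 and 4.57 CPM (log2 fold change -2.49 ± 0.31, adjusted p = 0.0139). *CDKN1A*, the cyclin-dependent kinase inhibitor p21, measured 103 and 180.2 CPM in WT and 46.9 and 97.3 CPM in *ERF* KD + *CIC* KO (log2 fold change -1.005 ± 0.17, adjusted p = 0.0276). *RRM2B*, a ribonucleotide reductase subunit, fell from 68.5 and 71.7 CPM to 27.9 and 38.9 CPM, the death receptor gene *FAS* from 16.7 and 18.1 CPM to 5.59 and 10.8 CPM, and *GADD45A* from 49 and 91.3 CPM to 31.7 and 49.7 CPM with overlapping groups. Exons of *FAS* overlap *ACTA2* on the other strand.

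Of 60 cell cycle and replication genes tested 4 rose (6.67%, against 0.969% of all genes tested) and 0 fell. A positive log2 fold change was found in 45 of the 60 (median 0.13) and in 50.1% of all genes tested. *CDC20*, an activator of the anaphase-promoting complex, rose from 212 and 207 CPM to 367 and 324 CPM (log2 fold change 0.72 ± 0.13, adjusted p = 0.0336). The replication factor *CDC45* (0.79 on the log2 scale) lies in the stretch of chromosome 22 described above, and the phosphatase *CDC25C* (0.88) and the kinesin *KIF20A* (0.76) lie in that of chromosome 5. Among the 15 D cyclins, CDK inhibitors and RB family genes *CDKN1A* alone was called (6.67%, against 2.49% of all genes tested).

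All 13 protein-coding transcripts of the mitochondrial genome were lower in both double libraries than in both WT libraries. Groups that did not overlap, in either direction, were found for 49.5% of all genes tested. The 13 mitochondrial genes encode subunits of the respiratory chain and the ATP synthase. Their summed level was 20164 and 19250 CPM in WT and 9268 and 11730 CPM in *ERF* KD + *CIC* KO, and their log2 fold changes had a median of -1.07, from -1.20 for *MT-ATP6* to -0.68 for *MT-CO1*. The threshold was passed by 4 of them (30.8%), while 1.52% of all genes tested were called lower. These 4 were *MT-CYB* (1164 and 991 CPM in WT and 458 and 484 CPM in *ERF* KD + *CIC* KO, log2 fold change -1.18 ± 0.20, adjusted p = 0.0275), *MT-CO3* (log2 fold change -1.13 ± 0.19, adjusted p = 0.0268), *MT-ND2* (log2 fold change -1.07 ± 0.20, adjusted p = 0.0362) and *MT-ND3* (log2 fold change -0.89 ± 0.15, adjusted p = 0.0276). The 13 transcripts come from shared precursors and are not independent of each other. The sum was 12823 and 17311 CPM in the libraries labelled *ERF* KD and 19106 and 11739 CPM in those labelled *CIC* KO. None of the 13 was called without the block, without either WT library or without *ERF* KD + *CIC* KO A, and DESeq2 called 7.

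**Figure D4:**
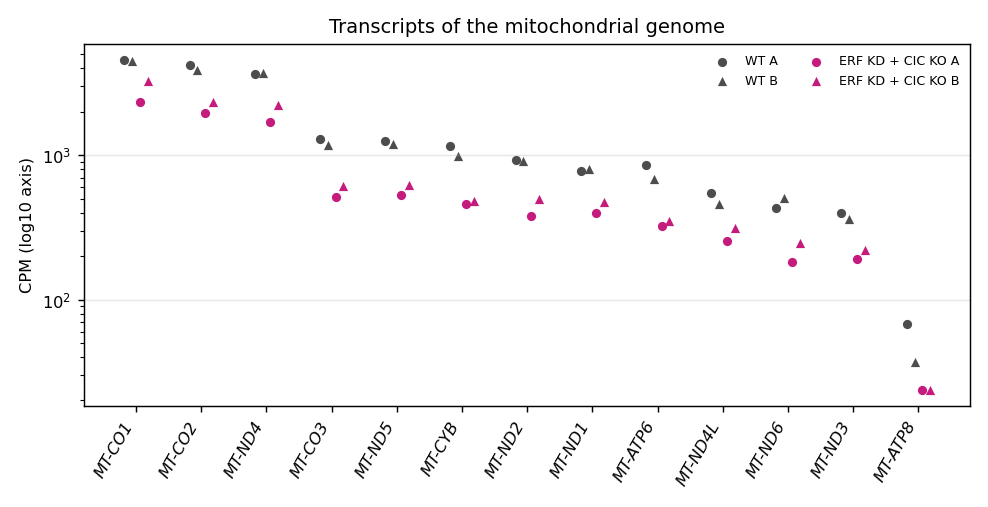
Level of the 13 protein-coding transcripts of the mitochondrial genome in the 4 libraries, as CPM on a log10 axis, with circles for replicate A and triangles for replicate B. The 2 double libraries lie below the 2 WT libraries for each transcript, as in *MT-CYB* at 458 and 484 against 1164 and 991 CPM.

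Metabolic genes changed singly, and of the 40 lipid genes tested 5% were called, against 2.49% of all genes tested. *LPL*, the lipoprotein lipase, fell from 12.2 and 10.5 CPM to 0.847 and 1.3 CPM (log2 fold change -3.41 ± 0.39, adjusted p = 0.0139), and *SCD5*, a fatty acid desaturase, from 59.4 and 53.2 CPM to 29 and 31.8 CPM; these were the 2 called of 40 lipid genes. *HMOX1*, the haem oxygenase induced by oxidative stress, fell from 36.9 and 49.6 CPM to 15.5 and 19.6 CPM (log2 fold change -1.29 ± 0.12, adjusted p = 0.00841), and the glutathione transferase *GSTM3* rose from 19 and 15.3 CPM to 32 and 33.5 CPM. *GLUL*, glutamine synthetase, fell from 10.8 and 5.76 CPM to 0.169 and 0.789 CPM (log2 fold change -4.05 ± 0.73, adjusted p = 0.0335). *CYP24A1*, which breaks down active vitamin D, fell from 19.9 and 9.89 CPM to 0.212 and 1.18 CPM (log2 fold change -4.32 ± 0.91, adjusted p = 0.0499), and the citrate transporter gene *SLC13A5* from 2.71 and 1.89 CPM to 0.127 and 0.282 CPM. Exons of *SLC13A5* overlap *C17orf100* on the other strand. In *ERF* KD + *CIC* KO A the levels of *GLUL*, *CYP24A1* and *SLC13A5* were near the floor. *PLBD1*, of the phospholipase B-like family, fell from 3.56 and 3.11 CPM to 0.466 and 0.395 CPM (log2 fold change -2.93 ± 0.43, adjusted p = 0.0204), and *TRIML2*, of the TRIM-like family, from 1.76 and 1.89 CPM to 0.254 and 0.113 CPM (log2 fold change -3.23 ± 0.63, adjusted p = 0.0415), the latter near the floor in the double line.

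No member was called in 10 of the 46 lists: tight junction (17 tested), receptor tyrosine kinases (24), NOTCH (27), interferon-stimulated (44), antigen presentation (18), glycolysis and hypoxia (35), sterol synthesis (27), prostate lineage (17), *HOX* genes (24) and the neuronal and neuroendocrine markers (10). In edgeR's test 50 of these 243 genes (20.6%) were at an unadjusted p under 0.05, against 20.6% of all genes tested, and DESeq2 called 10 of them (4.12%), against 6.31% of all genes tested. The interferon-stimulated genes illustrate the spread, with sums of 4878 and 6166 CPM in WT and 8633 and 3463 CPM in the double line, and *IFI44L* measured 23.4 and 21 CPM in WT and 8.34 and 0.902 CPM in *ERF* KD + *CIC* KO (adjusted p = 0.0626). Of the 58 genes tested among the study's 91 shared targets of both repressors, *ETV4* and *ETV5* rose and *IL20RA*, a cytokine receptor chain, fell (4.65 and 5.91 CPM in WT and 1.14 and 1.41 CPM in the double line, log2 fold change -2.04 ± 0.37, adjusted p = 0.0335); the median of the list was 0.15. The study drew this list from CIC binding in PNT2 cells and a public set of ERF binding in VCaP prostate cancer cells. The list is not independent of the question asked here. Of its tested members 5.17% were called, against 2.49% of all genes tested.

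**Figure D5:**
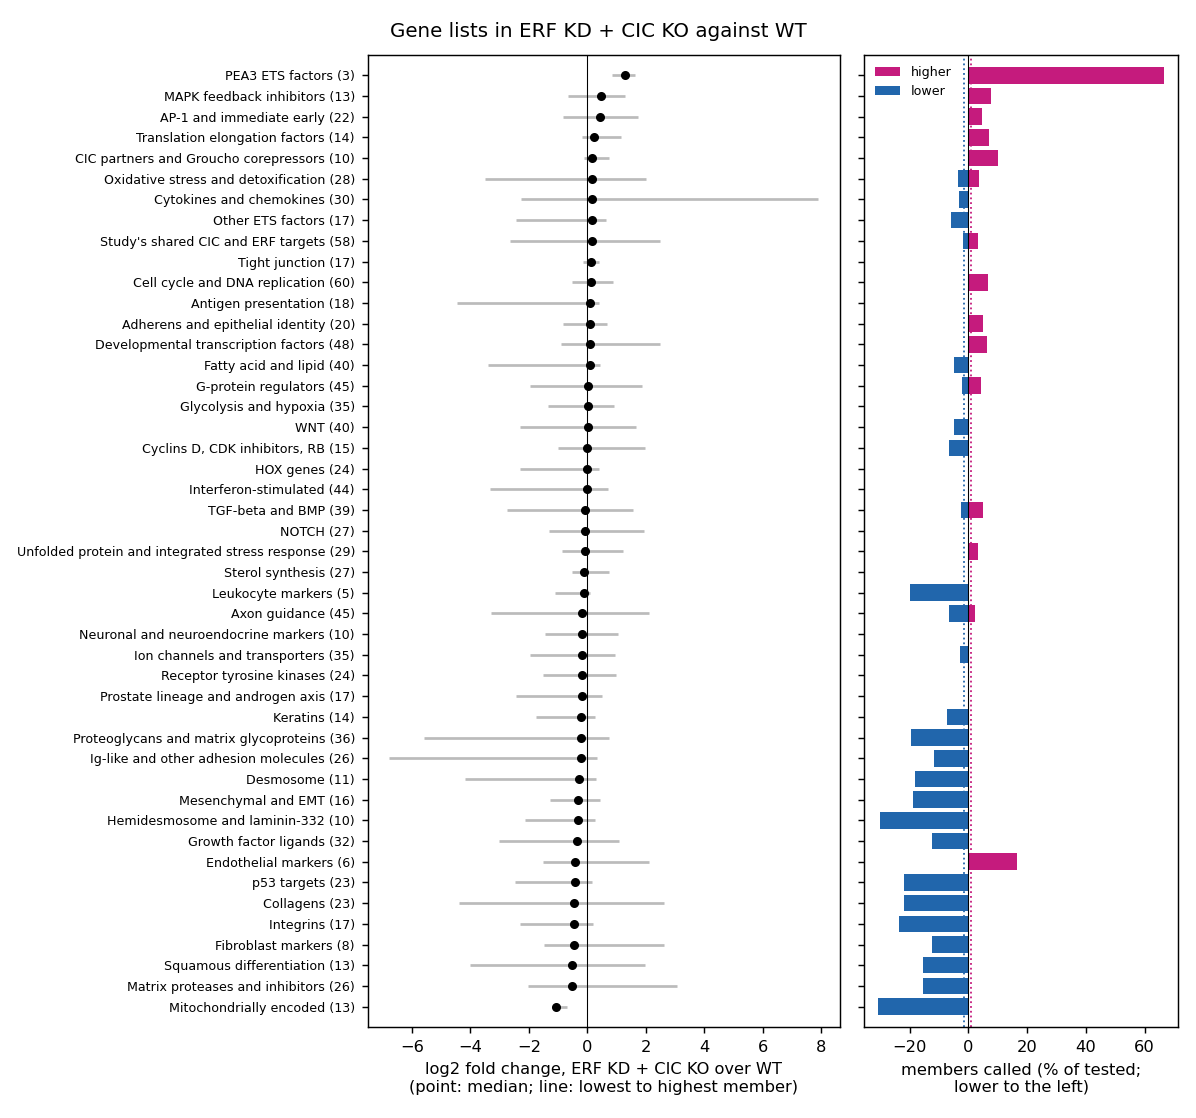
The 46 gene lists ordered by the median log2 fold change of their tested members (number in brackets). In the left panel the point is the median and the line runs from the lowest to the highest member; in the right panel bars give the percentage of tested members called higher (to the right) or lower (to the left), and dotted lines give the same for all genes tested (0.969% and 1.52%). The PEA3 factors stand at the upper end and the mitochondrially encoded transcripts at the lower end.

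Several of the largest changes took a different value in the single-loss libraries, which share the 2 WT libraries with this comparison. *NFATC1*, *ANO2* and *SLIT2* stood at 0.048 and 0.199 CPM, 0.24 and 0.149 CPM and 0 and 0.348 CPM in the libraries labelled *ERF* KD, below WT, while the double libraries lay above WT. *VCAN* measured 40.1 and 27.4 CPM and *ZEB1* 41.1 and 49 CPM in the libraries labelled *ERF* KD, above WT, and 0.418 and 1.06 CPM and 8.37 and 9.04 CPM in those labelled *CIC* KO. *ETV1* measured 70.7 and 49.4 CPM in the libraries labelled *ERF* KD and 11.8 and 11.4 CPM in those labelled *CIC* KO. *EEF1A2* measured 56.6 and 58.1 CPM and 299 and 324 CPM, so that its level was highest in the double line. The differences between the comparisons were not tested here.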

How the data were processed

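RNA-seq libraries of PNT2 cells were analysed from the deposited per-transcript tables, in which the authors gave estimated counts and TPM (length-normalized transcript abundance) in the columns that kallisto writes. The study's methods name RSEM, the submitters' processing notes name hg19, and the version and annotation of the quantification are not given in the sources used here. Estimated counts of each gene's transcripts were added up by the gene models of GENCODE release 29 on GRCh38, to which 153245 of 180253 transcripts (85.0%) matched, holding 93.2 to 93.3% of the counts, and were rounded to whole numbers. Single-transcript estimates divide reads shared by near-identical genes.

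All 8 libraries (4 groups of 2) were fitted together with edgeR 4.0.16 in R 4.3.3 by the quasi-likelihood test, with TMM scaling, the default filter on low counts and the replicate letter as a block, and p-values were adjusted by Benjamini-Hochberg over all genes tested. CPM are counts scaled to TMM-adjusted library totals. Same-letter libraries deviated together in each of the 6 pairs of groups (r from 0.136 to 0.335), from the data alone, since the labels do not say what a letter stands for. The biological coefficient of variation was 0.142 with the block and 0.197 without it. Replicates differed by more than sampling noise (chi-square over degrees of freedom of 20.8 to 41.6). An exact permutation test of 2 against 2 libraries cannot go below p = 0.333 and was not used.

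Genes named were the 15 protein-coding called genes with the largest change in each direction, at a mean of at least 1 CPM and with groups that did not overlap, the targeted genes and PEA3 factors, and up to 5 called members per list with any member needed to describe it; not all called members of the smaller lists are printed. *DUSP10* and the genes of the chromosome 5 and 22 stretches were named after their values were seen. The comparison, the 46 lists and the tests were chosen with earlier results of these data known. Alternatives were DESeq2 1.42.0, limma 3.58.1 on log2(TPM + 1) and log2(TPM + 0.1), no filter, length-scaled counts, the 2 groups alone, no block, a minimum change and leaving out each library. Some called genes are not reported here. The steps were tested on simulated data. Intervals and floors cover counting error only.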

Additional observations from a re-analysis of the deposited data

How the results depend on the processing

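The main count of 365 called genes (142 higher, 223 lower) depended on the settings, while no called gene changed direction in any alternative in which it was tested. Leaving out each library in turn gave between 22 and 457 calls. Without the replicate block, that is without pairing the libraries by letter, 10 genes were called. DESeq2 called 925 genes, the test without a filter on low counts 798, the fit of the 2 groups alone 797 and length-scaled counts 149. With limma, log2(TPM + 1) gave 53 calls and log2(TPM + 0.1) gave 19, of which 28.3% and 26.3% were higher, against 38.9% in the main test. A minimum absolute log2 fold change of 1 left 178. Leaving out the genes of chromosomes 5 and 22, an alternative chosen after seeing the data, left 271. The cause of these differences was not tested, except that the minimum change and the omission of libraries leave fewer genes or samples by construction.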

Other observations

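Zinc finger genes whose symbol starts with *ZNF* and a number, a class chosen after its values were seen, were mostly lower in *ERF* KD + *CIC* KO. Most encode KRAB or other C2H2 zinc finger proteins, many of which silence transposable elements, and about as many lie in the clusters of chromosome 19 as elsewhere. Of 484 tested 13 were called lower and 2 higher, where 1.52% and 0.969% of all genes tested were. A negative log2 fold change was found in 336 of the 484, and the median was -0.20. The median was -0.25 over the 241 on chromosome 19 and -0.14 over the 243 elsewhere, whereas the 865 other genes tested on chromosome 19 had a median of 0.01. Against the same WT libraries the median of the class was 0.02 in the libraries labelled *ERF* KD and -0.06 in those labelled *CIC* KO. Among the 20 blocks of 25 neighbouring genes with the lowest medians 5 lay on chromosome 19, and the lowest block median of the genome was -0.60.

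Among the other called genes outside the lists, some that encode secreted or surface proteins are named here, picked after their values were seen. *SLPI*, a secreted protease inhibitor, fell from 22.8 and 28.3 CPM to 5.21 and 4.79 CPM (log2 fold change -2.34), *HTRA1*, a secreted serine protease, from 55 and 62.4 CPM to 20.8 and 23.2 CPM (-1.42), and *ANPEP*, a surface aminopeptidase, from 299 and 382 CPM to 58.5 and 137 CPM (-1.92). *ABCG2*, a multidrug efflux pump, rose from 48.8 and 41 CPM to 86.6 and 87.7 CPM (0.95), and *LIFR*, a cytokine receptor, from 35.7 and 31.8 CPM to 72.6 and 49.4 CPM (0.85).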
